A study of Mus musculus with 6 samples.

Results

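T cell receptor loci are built from variable (V), diversity (D), joining (J) and constant (C) segments, which developing T cells join by recombination into 1 working gene for each receptor chain. The alpha, beta, gamma and delta chains form 2 kinds of receptor, and the delta segments lie inside the alpha locus. A segment can also be transcribed before it is joined, as a germline transcript, and a row of this table does not tell such a transcript from a joined one. In mouse lymphoid progenitors the gamma locus is known to be opened for transcription by cytokine signalling through STAT5.

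The rows described here are those of the deposited expression table whose gene symbol names a T cell receptor segment. The symbol pattern took 17 of 12615 rows, and 1 of them, Tradd, matched by its letters only. Tradd encodes a death domain adaptor of the tumour necrosis factor receptor. It lies outside the loci, on chromosome 8, had 21.9 FPKM in the hCALR group and 19.5 FPKM in the other, and was left out. The other 16 rows carry 14 symbols, since Trbv17 and Trbv26 have 2 rows each, and they are 14 V rows and 2 C rows. Of the 16 rows, 4 carry more than 1 gene identifier and 8 share their locus with at least 1 other row. The symbols choose the rows, but the family was singled out with the values of these data already known. The values and the calls of the authors are therefore a description of these rows and no test of the family.

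The samples are Ba/F3 cells, a mouse pro-B cell line that needs interleukin-3 (IL-3) to grow. In 3 of the 6 samples the cells carried human calreticulin without the mutation (hCALR), and in 3 they carried hCALR-del52, the type 1 mutant found in myeloproliferative neoplasms. Both constructs were brought in with the pMSCV-IRES-GFP vector, and both groups grew with IL-3 at 1 ng/ml. The labels do not say whether replicates are separate cultures or separate transductions, nor whether a line is 1 clone, so that construct and cell line cannot be told apart.

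The authors' table gives 1 FPKM value per group (fragments per kilobase of transcript, set relative to all mapped fragments), with the Cuffdiff test of hCALR-del52 against hCALR. Values below are these group values, with no SD, and the depth is unknown. A row is called where the authors' q is under 0.05. Over the whole table, calls with a higher value in hCALR-del52 cells made up 0.872% of rows and calls with a lower value 0.967%, 1.84% together. Throughout, a pair of FPKM values gives hCALR cells before hCALR-del52 cells. In bulk RNA, fewer cells with a transcript and less of it per cell cannot be told apart. Markers fixed for the label were thinly covered: 3 of 15 pro-B cell markers had a row (Ptprc, Cd72 and Cd79b), which summed to 120.3 and 94.1 FPKM. Defining pro-B genes such as Pax5 and Vpreb1 were not analysed here.

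The V segments that the results turn on are shown by the last 60 bases of their coding sequence, the edge at which a V segment is joined (GENCODE M21 transcripts, mm10, coding strand). Capitals mark the codon of the conserved cysteine at the start of the third complementarity-determining region, found as the last in-frame cysteine codon and preceded by a tyrosine codon and 1 further codon in all 8 segments. They are the called segments and Trav17.
Trbv13-2 (chr6:41121773-41121832, plus strand): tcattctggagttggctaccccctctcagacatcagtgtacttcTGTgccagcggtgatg
Trbv15 (chr6:41141599-41141658, plus strand): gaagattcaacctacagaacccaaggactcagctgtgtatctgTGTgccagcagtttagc
Trbv17 (chr6:41163497-41163556, plus strand): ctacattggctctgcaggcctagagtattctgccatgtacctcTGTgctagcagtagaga
Trbv26 (chr6:41227934-41227993, plus strand): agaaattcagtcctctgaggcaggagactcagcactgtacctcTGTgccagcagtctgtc
Trav17 (chr14:53807056-53807115, plus strand): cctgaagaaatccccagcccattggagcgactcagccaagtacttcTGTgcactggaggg
Trav18 (chr14:53831768-53831827, plus strand): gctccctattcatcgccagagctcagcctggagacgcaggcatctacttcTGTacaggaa
Trdv4 (chr14:54075456-54075515, plus strand): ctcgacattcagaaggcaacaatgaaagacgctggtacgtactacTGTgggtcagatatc
Trdv5 (chr14:54148662-54148721, minus strand): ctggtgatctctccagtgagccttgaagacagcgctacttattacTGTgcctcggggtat

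Among segment rows at 1 FPKM or more in both groups, beta, gamma and delta rows were lower in hCALR-del52 cells. They were the rows of Trbv1, Trbv13-2, Trdv4, Trdv5, Tcrg-C1, Tcrg-C2, Tcrg-V7 and Trgv2, not all of them called. Trav17, the only alpha segment row at that level in both groups, was higher and was not called. Of the 16 rows, 6 fell, 1 rose and 9 were not called. The rows that fell were those of Trbv13-2, Trbv15 and Trdv5, 1 row each of Trbv17 and Trbv26, and Trdv4, and the row that rose was Trav18. Benjamini-Hochberg adjustment repeated over the authors' Cuffdiff p-values of all rows left 5 lower calls and 1 higher call, where 0.729% of all rows were called lower and 0.634% higher, 1.36% together. The median log2 ratio of the 16 rows, on the log2(FPKM + 1) scale, was -1.37, beside -0.01 over all 12615 rows. The choice of the family fixes this difference, so nothing is read from it. Most of these rows were low: the median FPKM was 4.63 in hCALR and 1.64 in hCALR-del52 cells, and 1 row in hCALR and 6 rows in hCALR-del52 cells were under 1 FPKM. A fold of such a row rests on a value close to 0. The larger FPKM was at least 1.01 in every row of the table, so such a row could be listed only through its higher group. The direction of these rows is therefore not read as a result. They include the called rows of Trbv15, Trbv17, Trbv26 and Trav18, and the row of Tcrg-V5, which was not called.

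**Figure D1:**
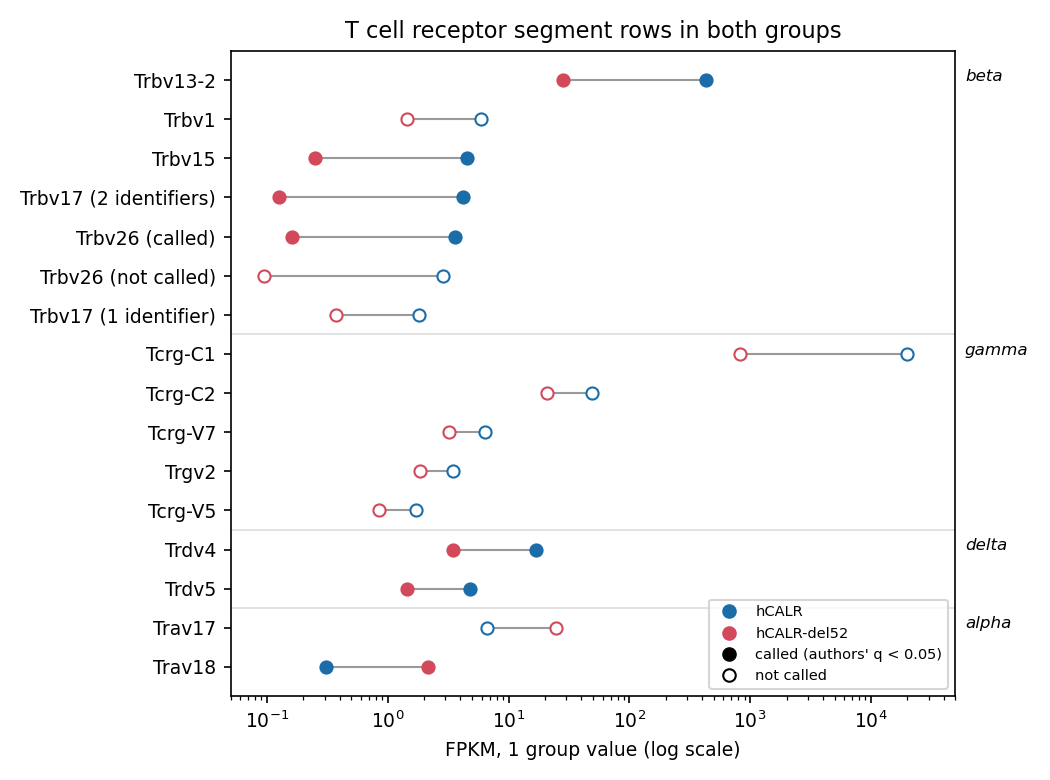
FPKM of the 16 T cell receptor segment rows in hCALR (blue) and hCALR-del52 (red), 1 group value each, on a log axis, grouped by receptor chain, with filled points for rows called by the authors. The red point lies to the left in all beta, gamma and delta rows and to the right in Trav17 and Trav18. Rows with a point under 1 FPKM could be listed only through their higher group, so their direction is not read.

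The beta locus, whose V segments encode the antigen-binding part of the beta chain, held the called row of the family with the highest FPKM. Trbv13-2 had 432.6 FPKM with hCALR but 28.4 FPKM with hCALR-del52. That level placed it 225th of 12615 rows in hCALR cells and 3924th in hCALR-del52 cells. This 15.2-fold lower FPKM is a log2 fold change of -3.93, called with q = 0.00161, in the authors' deposited table. The row (chr6:41118256-41122772) also carries the identifier of the neighbouring segment Trbv12-2, so its value is that of 2 segments. Their coding sequences were 59.3% identical over 317 aligned bases, with no identical run above 18 bases.

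The other beta V rows lay well below this level in both groups. Trbv15 had 4.51 and 0.252 FPKM. Its q in the authors' deposited table was 0.0443, the called member nearest to the threshold. It was the segment whose call was lost under the repeated adjustment, where its adjusted Cuffdiff p was 0.134. Trbv1, the segment at the far 5′ end of the locus, was at 5.87 and 1.44 FPKM and was not called, with q = 0.162 in the authors' deposited table.

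For Trbv17 and Trbv26 the 2 rows of each symbol gave different calls. The Trbv17 row that also carries the identifier of Trbv19 went from 4.21 to 0.127 FPKM, 33.2-fold lower, and was called with q = 0.00161 in the authors' deposited table. The Trbv17 row with 1 identifier, on the same locus, was at 1.83 and 0.370 FPKM and was not called. Both rows of Trbv26 carry the same identifier and the same locus. The called one went from 3.59 to 0.160 FPKM, 22.4-fold lower. The other was at 2.89 and 0.0940 FPKM, 30.8-fold lower, and had q = 0.290 in the authors' deposited table, so the row with the larger fold was the one not called. The locus of the Trbv26 rows spans 29441 bases around an annotated segment of 489 bases and also covers Trbv25, and that of the Trbv17 rows spans 31565 bases and also covers Trbv18, Trbv19 and Trbv20. Reads from such a row need not come from the named segment alone.

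The beta locus also held rows without a gene identifier. One between Trbv13-2 and Trbv15 (chr6:41125018-41125445) was at 4.46 and 0.451 FPKM and was not called, with q = 0.0562 in the authors' deposited table. Another, just before the Trbv26 locus (chr6:41220341-41220665), was at 2.37 FPKM in hCALR cells, was listed at 0 in hCALR-del52 cells, and was called. Since the larger FPKM was at least 1.01 in every row of the table, rows under 1 FPKM in hCALR-del52 cells, such as these and 5 of the 7 beta segment rows, could be listed only where hCALR was higher, and their shared direction is not read as a result. Of the 9 rows inside the beta locus, 5 were called, beside 1.84% of all rows. Among these 5, only Trbv13-2 was at 1 FPKM or more in both groups. Of the 53 beta segments in the annotation, 7 had a row, all of them V segments, so that the beta D, J and C segments were not analysed here.

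The gamma locus held the most abundant row of the family, that of Tcrg-C1, and none of its 5 rows was called by Cuffdiff, also none at an unadjusted p under 0.05. Against the 1.84% called over all rows, no call among 5 rows is near the background and is not a result about the locus. Tcrg-C1, a constant segment of the gamma chain, was at 20047 FPKM in hCALR cells, the 5th highest of all rows, and at 830 FPKM in hCALR-del52 cells, the 143rd. This is a 24.2-fold lower FPKM, with p = 0.0895 and q = 0.568 in the authors' deposited table. Of 134 rows at 1000 FPKM or more in at least 1 group, Tcrg-C1 was the only one with a fold of at least 4. None of the 134 was called, beside 1.84% of all rows. Without values per replicate, the spread behind the test of Tcrg-C1 cannot be seen. Tcrg-C2, a second constant segment, was at 48.6 and 20.8 FPKM, 2.34-fold lower. The gamma V rows were low in both groups: Tcrg-V7 was at 6.41 and 3.19 FPKM, Trgv2 at 3.46 and 1.84 FPKM and Tcrg-V5 at 1.73 and 0.846 FPKM. Their folds, between 1.89 and 2.04, were close to each other and to that of Tcrg-C2.

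A further gamma row stood under the symbol Gm16602, which the symbol pattern does not take. Its identifiers belong to Tcrg-V1 and Tcrg-C4, the fourth constant segment with its V segment. This row was the highest of all 12615 rows in both groups, with 60339 and 49225 FPKM, 1.23-fold lower in hCALR-del52 cells, with q = 1.00 in the authors' deposited table. It was 3.01 times the Tcrg-C1 row in hCALR and 59.3 times in hCALR-del52 cells. Neither this row nor that of Tcrg-C1 was called, and with 1 value per group no test of one against the other could be made.

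The gamma constant segments are shown by the first 90 bases of their coding sequence, because copies this alike can share reads (GENCODE M21 transcripts, mm10, coding strand). Capitals mark letters that differ from Tcrg-C1 at the same place.
Tcrg-C1 (chr13:19214103-19214192, plus strand): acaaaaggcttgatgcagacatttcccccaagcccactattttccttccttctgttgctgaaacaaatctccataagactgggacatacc
Tcrg-C2 (chr13:19307462-19307551, minus strand): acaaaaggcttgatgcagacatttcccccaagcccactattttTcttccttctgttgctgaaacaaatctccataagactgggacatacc
Tcrg-C3 (chr13:19260885-19260974, plus strand): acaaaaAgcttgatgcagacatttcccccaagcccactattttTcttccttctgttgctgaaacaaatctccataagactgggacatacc
Tcrg-C4 (chr13:19344558-19344647, plus strand): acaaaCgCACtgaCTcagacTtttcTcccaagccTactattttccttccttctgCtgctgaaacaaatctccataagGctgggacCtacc

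Over the whole coding sequence, Tcrg-C1 was 97.4% identical to Tcrg-C2 and 96.8% identical to Tcrg-C3, with identical runs of up to 86 and 94 bases. Tcrg-C4 was 77.3% identical to Tcrg-C1, with no identical run above 29 bases. Both the Tcrg-C1 and the Tcrg-C2 row also carry the identifier of Tcrg-C3, and the sources used here do not say how reads of the 3 near copies were divided between rows. The single values of Tcrg-C1 and Tcrg-C2 are therefore uncertain. The V segments Tcrg-V1 and Trgv2 were 95.7% identical and are uncertain in the same way. Tcrg-C1, Tcrg-C2, Trgv2, Gm16602 and 3 rows without a gene identifier share a single locus of 143 kb (chr13:19209774-19352841). None of these 7 rows was called, which is near the 1.84% called over all rows. Tcrg-V7 shares its locus with Amph, the gene of the membrane-bending protein amphiphysin, whose 2 rows were at 8.75 and 4.59 FPKM and at 1.45 and 0.830 FPKM. The second Amph row could be listed only where hCALR was higher, so its direction is not read as a result.

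At the alpha/delta locus, rows on 2 stretches lay on opposite sides. Trdv4, a delta V segment, fell from 16.8 to 3.50 FPKM, 4.79-fold, with q = 0.00161 in the authors' deposited table. Trdv5, the delta V segment that lies in the opposite orientation and is joined by inversion, fell from 4.75 to 1.44 FPKM, 3.30-fold, with q = 0.00296 in the authors' deposited table. Between them, a row without a symbol carries the identifiers of the delta D segment Trdd2 and of the delta J segments Trdj1 and Trdj2. It fell from 23.2 to 5.51 FPKM, 4.21-fold, with q = 0.00161 in the authors' deposited table. A row without a gene identifier in the table, on a locus where the annotation lists Gm30275 (chr14:54094469-54096910), fell from 1.78 to 0.255 FPKM. All 4 rows of this stretch of 74.5 kb were called lower, with folds between 3.30 and 6.99. The fold of 6.99 is that of the row on the Gm30275 locus. At under 1 FPKM in hCALR-del52 cells, that row could be listed only where hCALR was higher, and its direction is not read as a result. The locus of Trdv5 overlaps Trdc, the delta constant segment, on the other strand, and the locus of the D and J row covers Trdc too. Gm30275 also overlaps the locus of Trdv4, on the other strand, and that of the D and J row. The rows of this stretch need not be separate declines of delta segments. The kit named in the labels does not mark strand. Reads from where the locus of the Trdv5 row overlaps Trdc therefore cannot be told apart by strand. The same holds where the locus of Trdv4 overlaps Gm30275.

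Of the alpha V segments, 242 kb closer to the start of the locus, 1 was called higher. Trav18 rose from 0.309 to 2.17 FPKM, 7.01-fold, with q = 0.00161 in the authors' deposited table. At under 1 FPKM in hCALR cells, the row could be listed only where hCALR-del52 was higher. Its direction is therefore not read as a result. Trav17 was at 6.69 and 24.7 FPKM, 3.69-fold higher, and its q of 0.0698 in the authors' deposited table placed it first among the members that were not called. Next to them, B230359F08Rik, which the annotation lists as a T cell receptor V segment, was at 4.29 and 8.71 FPKM and was not called. These 3 rows lie within 37.5 kb and were the only ones of 28 rows inside the loci that were higher in hCALR-del52 cells. Of the lower rows, 6 segment rows and 7 others were under 1 FPKM in hCALR-del52 cells. Like Trav18, they could be listed only through their higher group, so the count of 3 of 28 is not read as a result. At the far 5′ end of the locus an olfactory receptor gene, Olfr1509, fell from 1.71 to 0.472 FPKM. That row could be listed only where hCALR was higher, so its direction is not read either. Its call was lost under the repeated adjustment, where its adjusted Cuffdiff p was 0.0781. Of 202 annotated segments of the alpha/delta locus 8 had a row, and Trac, the alpha constant segment, was not analysed here.

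**Figure D2:**
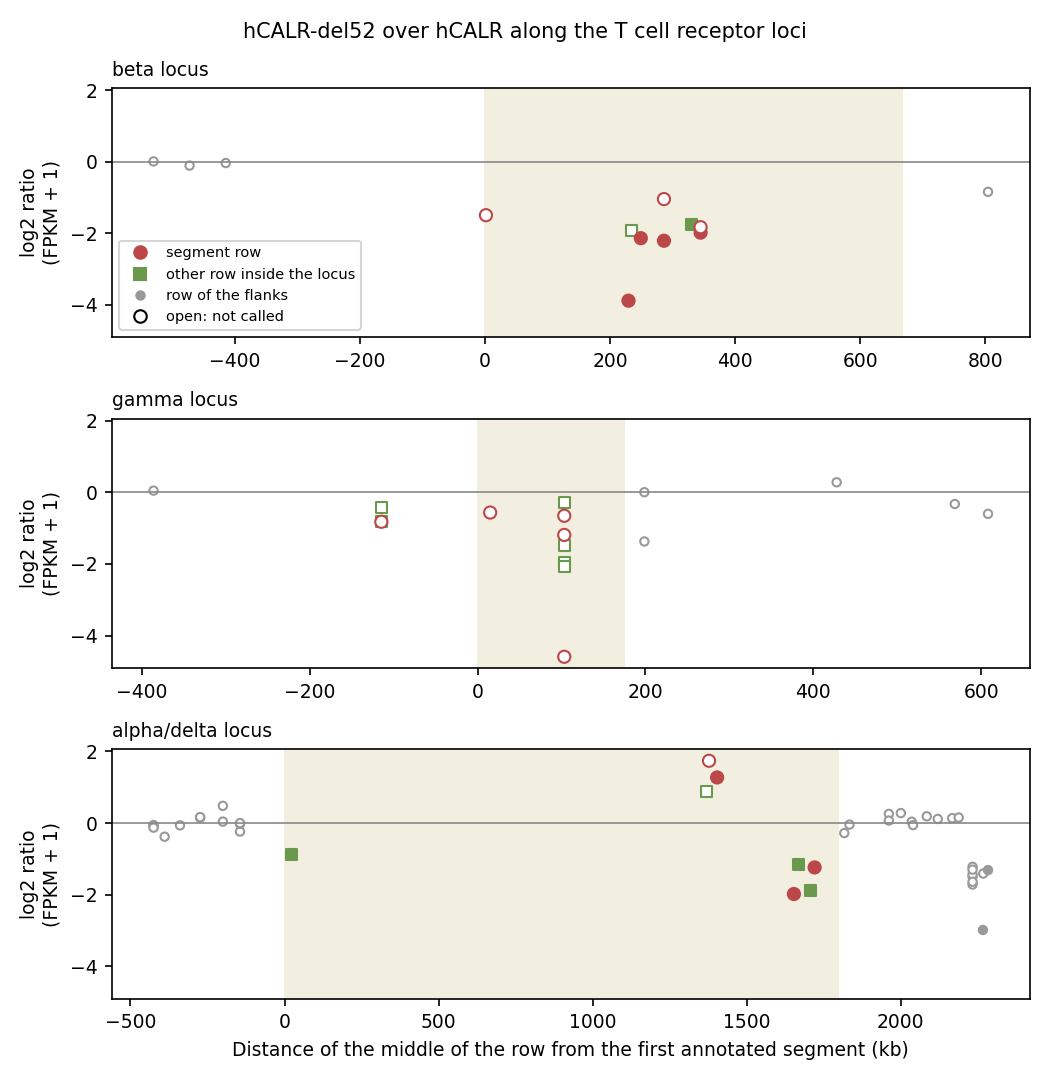
log2 ratio of hCALR-del52 over hCALR on the log2(FPKM + 1) scale, by distance from the first annotated segment of the beta, gamma and alpha/delta loci (shaded), for segment rows (red), other rows inside the loci (green) and rows within 500 kb (grey), filled where called. A row is drawn at the middle of its locus, which puts Tcrg-V7 before the shaded part because it shares the locus of Amph. Rows inside the loci lie below 0 except the 3 alpha rows. Rows under 1 FPKM in 1 group could be listed only through the other, so their side of 0 is not read. Grey rows mostly lie near 0, apart from a group at the far right of the alpha/delta plot, Cebpe among them.

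Outside the loci the rows of other genes lay mostly near equality. The 42 rows within 500 kb had a median log2 ratio of -0.06, with none called higher and 2 called lower. Over all rows, 0.872% were called higher and 0.967% lower. Dad1, a subunit of the enzyme that attaches sugars to new proteins and the nearest row after the alpha/delta locus, at 11.3 kb, was at 59.4 and 48.8 FPKM. On the other side of that locus Tox4, Rab2b and Mettl3 share the nearest locus with a row, 122.8 kb away, and Tox4 was at 21.5 and 21.2 FPKM. The rows of the table nearest to the beta locus were Ssbp1, 409 kb before it, at 37.8 and 36.7 FPKM, and Kel, a blood group antigen gene 128 kb after it, at 2.01 and 0.678 FPKM and not called. After the gamma locus, at 4.92 kb, Stard3nl has 2 rows, at 15.01 and 15.05 FPKM and at 4.04 and 0.948 FPKM, neither of them called. The Kel row and the second Stard3nl row could be listed only where hCALR was higher, so their direction is not read as a result. Vps41, 311 kb before the gamma locus, was at 27.4 and 28.4 FPKM. Both called rows lay after the alpha/delta locus, past a shared locus 407 kb away whose 6 rows were all lower. These 6 rows were 2.60-fold to 3.86-fold lower and not called, among them Acin1 at 413.3 and 145.9 FPKM. The called rows were Cebpe and a row without a gene identifier. Cebpe, a transcription factor gene of granulocyte maturation 486 kb away, fell from 62.9 to 24.7 FPKM. The called row without a gene identifier, 470 kb away, fell from 9.35 to 0.306 FPKM. That row could be listed only where hCALR was higher, so its direction is not read as a result.

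Genes that a T cell receptor needs at the membrane and in signalling were counted from a list of 30, of which 12 had a row. Of these, 2 rose, none fell and 10 were not called, with a median log2 ratio of -0.02. Over all rows, 0.872% were called higher and 0.967% lower. Cd3g, a chain of the CD3 complex that carries the receptor, rose from 1.29 to 25.1 FPKM, and Grap2, an adaptor behind the receptor, from 0.779 to 11.5 FPKM. At under 1 FPKM in hCALR cells, Grap2 could be listed only where hCALR-del52 was higher. Its direction is therefore not read as a result. Among the members not called, the adaptor Lcp2 was at 75.1 and 71.8 FPKM, the phosphatase Ptprc (CD45) at 83.1 and 60.1 FPKM, the kinase Csk at 69.2 and 70.5 FPKM, the exchange factor Vav1 at 39.9 and 31.7 FPKM, the kinase Fyn at 24.8 and 30.7 FPKM and the kinase Tec at 27.5 and 16.2 FPKM. Cd3e, Cd3d, Cd247, Lck and Zap70 were not analysed here. Of 20 T cell markers 2 had a row, Cd3g and the adaptor gene Lat, which was at 5.16 and 5.33 FPKM, and their sum was 6.45 and 30.4 FPKM. Of 10 NK cell markers 2 had a row, Gzmb and Nkg7, which summed to 1422 and 897 FPKM with no call. Nearly all of this came from Gzmb, at 1418 and 894 FPKM, while Nkg7 was at 3.43 and 2.92 FPKM. Of 8 mast cell and basophil markers 4 had a row and summed to 563.6 and 510.4 FPKM, and 2 of them, the protease genes Cpa3 (176.0 and 54.2 FPKM) and Cma1 (18.0 and 6.86 FPKM), fell. Most of that sum came from the transcription factor gene Gata2, at 368.2 and 448.1 FPKM and not called, and Hdc, the histamine-forming enzyme gene, was at 1.45 and 1.19 FPKM and not called. No measured marker of these lists was at 0, and their part in the segment values was not tested.

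Of a list of 30 factors that open or recombine antigen receptor loci, 20 had a row, none was called by Cuffdiff and none had an unadjusted p under 0.05, with a median log2 ratio of 0.01. Against the 1.84% called over all rows, no call among 20 rows is near the background and is not a result about these factors. The log2 ratio farthest from 0 in the list was that of Runx3, a RUNX factor named after its values were seen, at 10.8 and 22.4 FPKM, with an unadjusted Cuffdiff p of 0.136. The STAT5 genes had 24.7 and 29.0 FPKM (Stat5a) and 21.2 and 18.7 FPKM (Stat5b). Myb, a transcription factor of blood progenitors, was at 226.5 and 144.6 FPKM. Cbfb, the partner of RUNX factors, was at 81.9 and 79.0 FPKM, the histone methyltransferase Ezh2 at 75.2 and 80.8 FPKM and Tcf3, which encodes the E2A proteins, at 52.1 and 61.0 FPKM. Ctcf, an architectural protein of chromatin, was at 51.7 and 58.3 FPKM, and Xrcc6, the Ku70 subunit of the end-joining complex, at 46.5 and 46.3 FPKM. The recombinase genes Rag1 and Rag2 were not analysed here. No row carried the identifier of an immunoglobulin segment, and the symbol pattern for immunoglobulin genes took only Ighmbp2, a helicase gene that matched by its letters, so the segments of the B cell receptor loci were not compared.

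**Figure D3:**
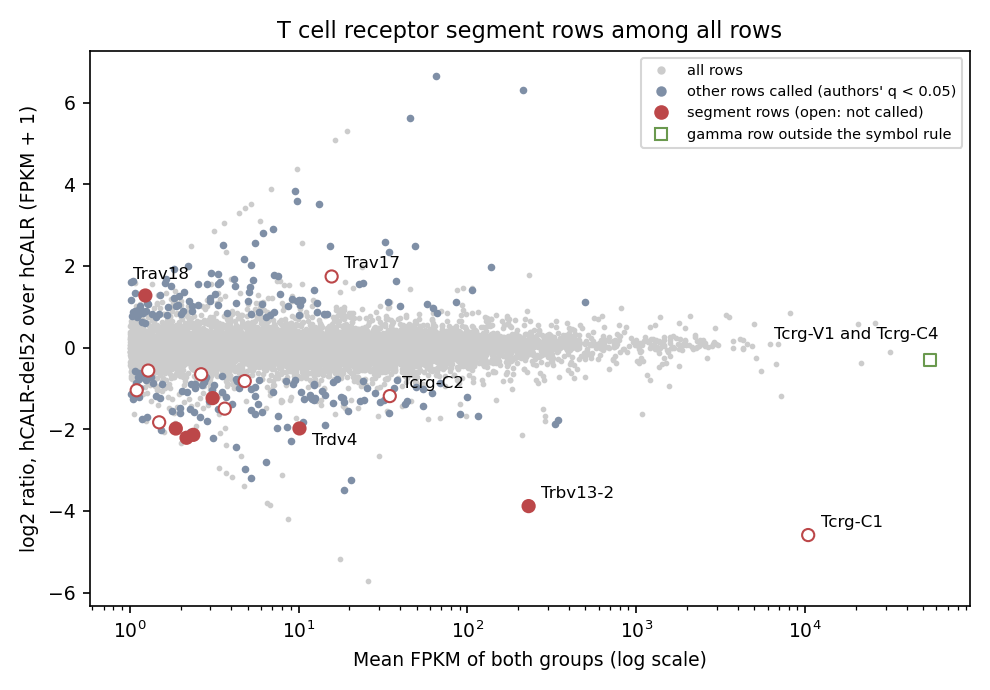
log2 ratio of hCALR-del52 over hCALR on the log2(FPKM + 1) scale against the mean FPKM of both groups (log axis) for all 12615 rows, with the T cell receptor segment rows in red. Tcrg-C1 and Trbv13-2 lie far below 0 at a high mean FPKM, and the row of Tcrg-V1 and Tcrg-C4 lies near 0 at the highest mean FPKM of the table.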

How the data were processed

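Total RNA of 6 Ba/F3 samples was sequenced, 3 per group, and groups were taken from the sample titles. The tools listed in the submitters' processing notes are TopHat2 2.0.9, Cuffdiff 2.1.1 and Bowtie2 2.1.0. Genome (mm10) and genes (Ensembl) are given per the file headers. They deposited 1 FPKM value per group, the log2 fold change, a p-value and a Benjamini-Hochberg q-value. The test statistic and the rank, both scores, are the authors' own and were used only to tell rows apart. The table leaves out low expressed and highly variable genes, per the file headers. The larger FPKM was at least 1.01 in every row.

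No value per replicate was used, so no test over replicates was made, and calls are the authors' q under 0.05. Adjusted p-values over all 12615 rows came from the deposited p-values, by a script tested on simulated data. A smallest p of 5e-05 is shared by 115 rows. Log2 ratios use a pseudocount of 1 FPKM, which understates the change of low rows. Starts count from 0 in the table, and 1 was added. Loci, segment types and sequences come from GENCODE M21 (mm10). The transcripts were aligned with Biopython 1.88. Members and lists were chosen with earlier results of these data known. All rows of the symbol pattern are named, with called list members, up to 6 other list members by mean FPKM, and the nearest and called rows of the flanks; other names were chosen after their values were seen. Alternatives were other thresholds, adjustments, pseudocounts and ways to treat repeated rows.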

Additional observations from a re-analysis of the deposited data

How the results depend on the processing

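Of the 16 segment rows, 1 was called higher and between 4 and 6 lower with a stricter q of 0.01, a fold limit of 1 on the log2 scale, an adjustment over all rows, rows with a single identifier, 1 row per symbol or 1 row per locus. With Bonferroni adjustment 0 were called higher and 0 lower, since the smallest p of 5e-05 cannot pass it over 12615 rows, while 10 rows had an unadjusted Cuffdiff p under 0.05. Among the 5 rows with a mean of at least 5 FPKM, an alternative chosen after seeing the data, 0 were called higher and 2 lower. The median log2 ratio of -1.37 was -1.999 with a pseudocount of 0.1, -2.15 with none, -1.14 over rows with a single identifier and -1.98 over those 5 rows. A limit of 1 FPKM could remove no row, since the larger FPKM was at least 1.01 in every row. No paired analysis was possible because replicates have no values of their own in the table. Leaving out a replicate was not possible either, and the files do not show what depth limits.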

Other observations

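Of the 4217 rows that share a locus with another row 0.403% were called, and of the 8398 rows alone on their locus 2.56%. Among rows with a fold of at least 4, calls were given to 6 of 26 rows on a shared locus (23.1%) and to 71 of 98 rows alone on their locus (72.4%). Of the T cell receptor segment rows with such a fold, 5 shared a locus, 2 of them called, and 5 stood alone, 4 of them called. Of 20 rows of the table with a fold of at least 16 between values above 0, 6 were not called. Tcrg-C1 had a mean of 10438 FPKM over both groups, and the next of these 6 had 7.95 FPKM. These are counts over rows, which are not independent, and no test was made of them.

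Rows without a gene identifier made up 992 of the 12615 rows, and 12 of them were called higher and 28 lower. Over all rows, 0.872% were called higher and 0.967% lower. Of the 6 rows without a gene identifier inside the T cell receptor loci, 2 were called lower. Of these 6, 5 were under 1 FPKM in hCALR-del52 cells and entered the table only through hCALR, and their direction is not read as a result.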
